A study of Homo sapiens with 4 samples.

Results

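The 45 genes described here encode the cytosolic heat shock proteins of the HSP70, HSP110, HSP90 and small heat shock protein families, the DNAJ and BAG cochaperones, the cochaperones of HSP90, the heat shock factors HSF1 and HSF2, and the chaperonin CCT. They were listed by name, with earlier results of these data known. Each gene was read from its probe set of highest mean among those annotated to that gene alone. Such a probe set existed for 41 of the 45 genes, out of 19775 genes on the array, and 37 of the 41 were bright enough to be tested among 13842 genes. HSPA8 (on 4 probe sets) and TCP1 (on 3) were listed only together with other genes, so they were not analysed here, and neither were AHSA1 and HSF2. The same holds for the stress-inducible pair HSPA1A and HSPA1B, which share their probe sets and are not among the 45. HSPA6, HSPA4L, FKBP5 and BAG2 lay below the bound for dim genes (mean log2 value under 6.11) and are given from a fit of all genes.

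RNA came from BT474, an established human breast cancer cell line with amplified ERBB2, grown in dishes with fresh medium that held either vehicle or 0.5 mM AICAR for 24 h. AICAR is a nucleoside that cells convert into an AMP mimic, which activates the energy sensor AMPK. There were 2 Affymetrix U133 Plus 2.0 arrays per group, 1 cell line, 1 dose and 1 time. All 10 markers of luminal breast epithelium lay above the dim bound, with mean log2 values of 10.43 to 14.15, whereas 4 of 7 stromal, 2 of 4 endothelial and 1 of 3 measured blood markers lay below it. Among the stromal markers COL1A1 was bright, at a mean of 9.70, and was lower with AICAR (difference -0.63, limma adjusted p = 0.0209); its part in the results was not tested. Correlations over probe sets were 0.997 within each group and 0.994 to 0.995 between groups. The labels do not say that the replicates were separate cultures, so the p-values reflect array-to-array spread that may be technical, and with so few arrays the precision is limited. In the fits that left out 1 array, the group with a single array was assumed to vary like the other group, whose 2 arrays alone gave the spread. In RNA of a whole culture, fewer cells of a kind and less RNA per cell cannot be told apart.

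Chaperones of the HSP70 family bind exposed hydrophobic stretches of client proteins in a cycle of ATP hydrolysis. J-domain proteins (DNAJ) bring clients and trigger the hydrolysis, and HSP110 proteins and BAG proteins release the nucleotide so that the client can leave. HSP90 then matures a narrower set of clients, among them steroid receptors and kinases such as ERBB2, with cochaperones that carry clients over from HSP70 or choose kinases. CCT is a closed ring chamber that folds actin and tubulin. Heat shock factor HSF1 induces many of these genes under stress, and AMPK has been reported to phosphorylate and restrain it. The set is labelled cytosolic, but DNAJA3 is known as a mitochondrial J protein and HSPA13 as a protein of the endoplasmic reticulum fraction.

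After 24 h of AICAR, 1 of the 37 tested chaperone genes rose and 4 fell at an adjusted p under 0.05 (limma, over all genes). The riser was the small heat shock protein HSPB8, and the fallers were BAG1, FKBP4, STIP1 and HSPA14. Over all 13842 genes 9.82% were called, 4.63% higher and 5.19% lower, so 5 of 37 is a share of the same order. Tested against a bound of 1.5-fold, 0 of the 5 passed, but over all 13842 genes only 2 passed as higher and 0 as lower. HSPB8 (1.80-fold) and BAG1 (1.76-fold) lay beyond this bound without passing the test. Most differences among the chaperones were small and negative. Of the 37 genes 28 had a negative difference, with a median of -0.09 (log2, AICAR minus vehicle), while over all genes 47.6% were negative and the median was 0.01. All genes were not matched to the chaperones in brightness. When only the brighter 50% of genes were kept, the median was -0.10 for the chaperones and -0.0082 over all genes. Both AICAR arrays lay below both vehicle arrays for 22 of the 37, against 28% of all genes, and above them for 4, against 28.5%. By an unadjusted limma p under 0.05, 10 were lower and 4 higher, against 13.3% and 12.8% of all genes. After quantile normalization of the deposited values, 1 of the 37 rose (HSPB8) and 2 fell (BAG1 and STIP1), while the split over all genes turned from 641 higher and 718 lower to 853 higher and 624 lower.

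**Figure D1:**
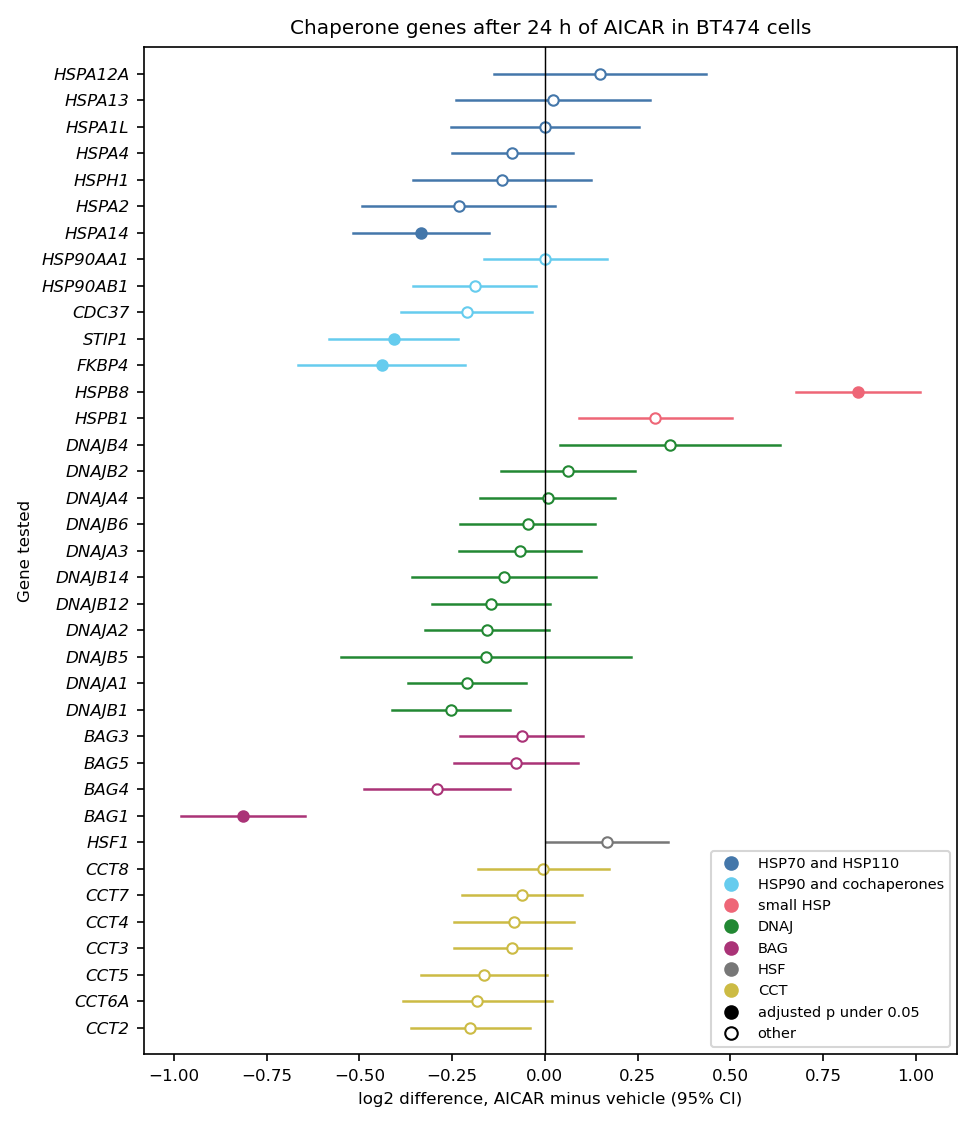
Log2 difference between AICAR and vehicle (x axis) for each of the 37 tested chaperone genes (y axis), coloured by functional group, with 95% confidence intervals from limma and n = 2 arrays per group. Filled points are the 5 genes with an adjusted p under 0.05: HSPB8 lies at 0.85, BAG1 at -0.81, and the other filled points between -0.44 and -0.33.

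HSF1, the master transcription factor of the heat shock response, stood at 8.42 and 8.44 (log2) in the vehicle arrays and at 8.63 and 8.56 in the AICAR arrays. Both AICAR values were above both vehicle values, yet the difference of 0.17 (SE 0.0687, 95% confidence interval 0.0019 to 0.33) did not pass (limma adjusted p = 0.188). A second HSF1 probe set gave 0.19. These are levels of HSF1 mRNA, and the arrays do not measure the phosphorylation or DNA binding of the protein.

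As sequence context, RefSeq promoter windows (GRCh38.p14, 250 bases before to 50 after each annotated start) were searched for the heat shock element GAANNTTCNNGAA on both strands, which is 3 alternating units of the HSF recognition triplet. Windows existed for 40 of the 45 genes, 58 in all because some genes have several starts. The element was found in 6 windows (10.3%), each of a different gene, against 0.49% of all 35116 windows. One of the 6 genes is HSPA8, which was not measured. The matches of the other 5 genes are shown because they carry the textbook recognition sequence of HSF1; capitals mark the element, with 10 bases on each side.
HSPA6, chr1:161524456-161524488, plus strand: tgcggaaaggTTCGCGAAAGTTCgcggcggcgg
HSP90AA1, chr14:102087110-102087142, minus strand: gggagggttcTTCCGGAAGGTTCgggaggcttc
HSP90AB1, chr6:44247768-44247800, plus strand: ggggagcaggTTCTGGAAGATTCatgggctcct
HSP90AB1, chr6:44247821-44247853, plus strand: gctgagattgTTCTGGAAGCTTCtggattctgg
DNAJA1, chr9:33025266-33025298, plus strand: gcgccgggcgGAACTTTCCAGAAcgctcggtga
DNAJB6, chr7:157336863-157336895, plus strand: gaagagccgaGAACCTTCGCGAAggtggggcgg
None of these 5 genes was called, against 9.82% of all genes tested, and HSPA6 lay below the dim bound. With a trend and robust variances in limma, HSP90AB1 (adjusted p = 0.0039) and DNAJA1 (0.0058) passed, while HSP90AA1 and DNAJB6 did not. Those variances called 1107 genes higher and 1359 lower over all genes. HSP90AA1 differed by 0.0015, DNAJB6 by -0.05, HSP90AB1 by -0.19 and DNAJA1 by -0.21 (log2), and HSPA6, the strictly inducible member of the HSP70 family, was dim at 5.89 and 5.97 with vehicle and 5.74 and 5.92 with AICAR.

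The windows of the genes with the largest rise and the largest fall are given beside an HSP90AB1 window for comparison. Of the 3 HSP90AB1 windows, the 1 shown was chosen because it holds 2 full elements. Capitals mark each run of 2 units (GAANNTTC or TTCNNGAA). Such runs also lie within the full element and occur in 13.5% of all windows.
HSPB8, chr12:119178681-119178980, plus strand: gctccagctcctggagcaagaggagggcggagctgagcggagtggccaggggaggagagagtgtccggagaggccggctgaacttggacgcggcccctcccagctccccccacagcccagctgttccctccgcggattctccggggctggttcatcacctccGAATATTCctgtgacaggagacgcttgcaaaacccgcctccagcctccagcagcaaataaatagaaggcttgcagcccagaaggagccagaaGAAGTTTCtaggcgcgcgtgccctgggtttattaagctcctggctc
BAG1, chr9:33264659-33264958, minus strand: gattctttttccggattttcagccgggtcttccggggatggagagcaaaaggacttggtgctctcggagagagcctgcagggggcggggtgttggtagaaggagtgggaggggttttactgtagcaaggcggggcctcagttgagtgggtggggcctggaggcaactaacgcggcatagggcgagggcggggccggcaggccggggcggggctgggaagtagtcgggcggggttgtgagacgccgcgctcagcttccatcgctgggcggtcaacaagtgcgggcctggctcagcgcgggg
HSP90AB1, chr6:44247693-44247992, plus strand: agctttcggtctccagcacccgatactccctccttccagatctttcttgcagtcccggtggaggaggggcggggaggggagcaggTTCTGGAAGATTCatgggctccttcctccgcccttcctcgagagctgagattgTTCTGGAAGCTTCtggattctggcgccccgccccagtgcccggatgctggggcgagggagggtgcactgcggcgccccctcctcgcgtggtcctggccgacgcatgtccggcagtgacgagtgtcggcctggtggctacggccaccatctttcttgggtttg
The HSPB8 window holds 2 separate runs of 2 units and no full element. The BAG1 window holds neither. The ERR element TNAAGGTCA, the recognition sequence of the estrogen-related receptors, was found on either strand in 0 of the 58 windows, against 0.951% of all windows. The CRE TGACGTCA was found in 2 (3.45%, against 1.85%), the E-box CACGTG in 3 (5.17%, against 7.26%) and the CCAAT box, CCAAT on either strand, in 18 (31%, against 34.6%). A match is only a match of letters, and a window without one says only that these letters are not in it.

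**Figure D2:**
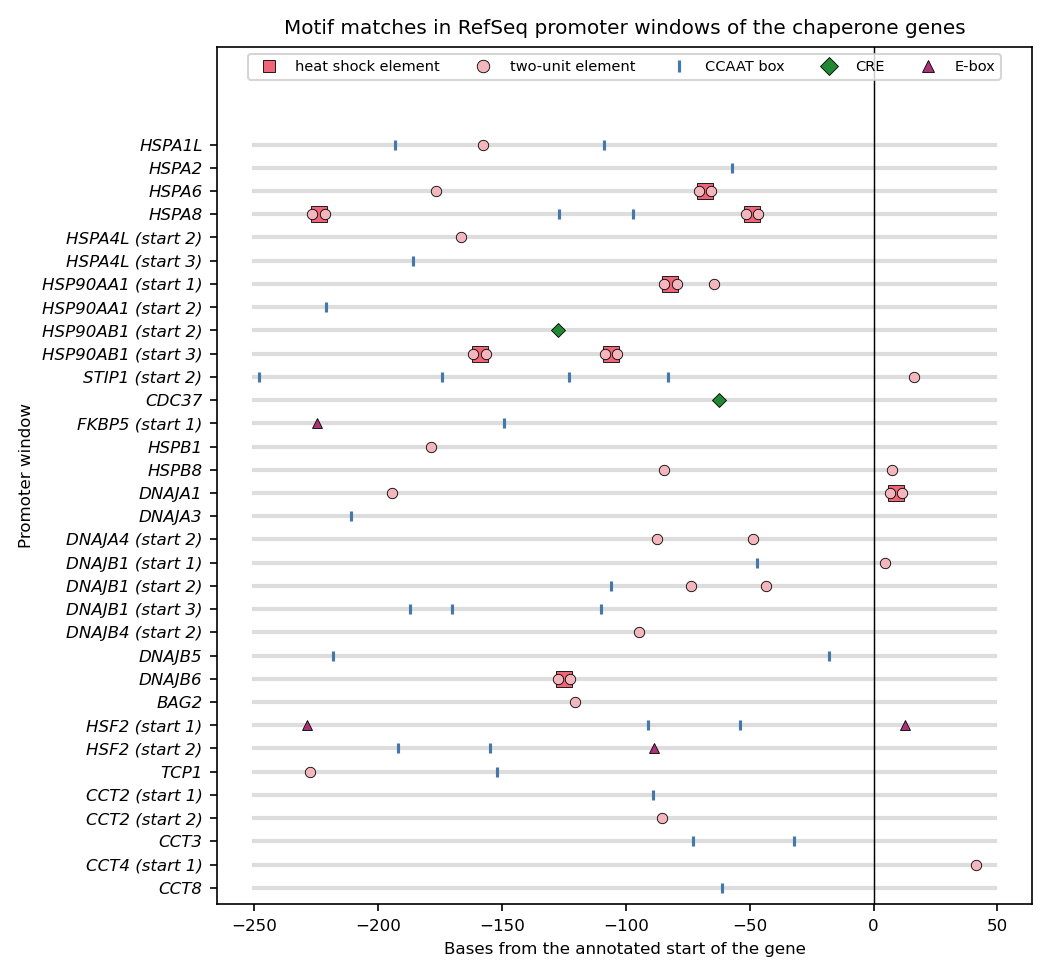
Positions of motif matches in the promoter windows that hold at least 1, with the distance from the annotated start of the gene in bases on the x axis and 1 line per window on the y axis; windows of genes with several starts are numbered by position. Squares are full heat shock elements, circles runs of 2 units, vertical ticks CCAAT boxes, diamonds CREs and triangles E-boxes. HSP90AB1 has 2 full elements, 165 and 112 bases before start 3 of its 3 starts, and DNAJA1 has 1 just after its start.

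Among the HSP70 and HSP110 genes, 0 of 7 tested rose and 1 fell, and the median was -0.09 (log2), but -0.029 without vehicle replicate 2 and -0.13 without AICAR replicate 2. By an unadjusted limma p under 0.05, 0 were higher and 1 lower. Taken apart, the 5 tested HSP70 genes had a median of -0.00042 and the 2 tested HSP110 genes a median of -0.10. Over all genes 4.63% were called higher and 5.19% lower, and 12.8% and 13.3% were so by the unadjusted p. HSPA14, an HSP70 relative that works at the ribosome with a J protein, was at 10.21 and 10.35 (log2) with vehicle and at 9.95 and 9.94 with AICAR. The AICAR values lay close together and below both vehicle values, a 1.26-fold fall (difference -0.33, SE 0.0763, adjusted p = 0.0454). This call was near the threshold. It was lost without vehicle replicate 1 (adjusted p = 0.126), vehicle replicate 2 (0.224), AICAR replicate 1 (0.0936) or AICAR replicate 2 (0.104), although the difference stayed between -0.40 and -0.26. It was also lost without the dim filter (0.0879), after quantile normalization (0.0548) and with the mean of its probe sets (0.0839). Of its 2 other probe sets, 1 differed by -0.30 and the other by -0.0063.

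HSPA2, known for its role in sperm development, was at 6.77 and 6.49 with vehicle and at 6.34 and 6.47 with AICAR. The nearest arrays of the 2 groups were almost level, and the difference of -0.23 did not pass (SE 0.108, adjusted p = 0.235). HSPA12A, a distant HSP70 relative, differed by 0.15, HSPA13 by 0.02 and the testis-enriched HSPA1L by -0.00042, with overlapping groups in all 3. In HSPA13 the AICAR arrays themselves stood apart, at 8.89 and 9.20, around vehicle values of 9.04 and 9.01. The other HSPA13 probe set, at -0.34 with groups that did not overlap, lay apart from the chosen one.

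The HSP110 proteins act as nucleotide exchange factors of HSP70. HSPA4L was at 6.00 and 5.80 (log2) with vehicle and at 5.35 and 5.41 with AICAR, below the dim bound, and in the fit of all genes it fell by 0.52 (SE 0.0931, limma adjusted p = 0.0411). A second probe set gave -0.49. The call was lost in each fit that left out 1 array (adjusted p = 0.219 without vehicle replicate 1, 0.114 without vehicle replicate 2, 0.142 without AICAR replicate 1 and 0.141 without AICAR replicate 2). HSPA4 differed by -0.09 (SE 0.0676, adjusted p = 0.459), yet its 4 probe sets ran from -0.38 to 0.0061. When probe sets that may match several transcripts (suffixes _s_at and _x_at) were passed over, HSPA4 was read at -0.38 and passed (adjusted p = 0.0431). HSPH1, which is strongly heat-inducible, was at 12.02 and 12.24 with vehicle and 11.94 and 12.09 with AICAR, a difference of -0.12 with overlapping groups (adjusted p = 0.510). Its 2 other probe sets were at -0.44 and -0.30, and with the mean of all 3 it fell by 0.28 (adjusted p = 0.0365).

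Of the 5 tested genes of HSP90 and its cochaperones 0 rose and 2, both cochaperones, fell, with a median of -0.21 (log2). By an unadjusted limma p under 0.05, 0 were higher and 4 lower. Taken apart, the 2 HSP90 genes had a median of -0.09 and the 3 tested cochaperones a median of -0.41. The shares over all genes were 4.63% called higher and 5.19% lower, and 12.8% and 13.3% unadjusted. FKBP4, the immunophilin that accompanies HSP90 in steroid receptor complexes, was at 11.10 and 11.04 with vehicle and at 10.74 and 10.51 with AICAR. The groups did not overlap, and the level was 1.36-fold lower (difference -0.44, SE 0.0935, adjusted p = 0.0375). Its probe sets all had negative differences, from -0.45 to -0.12. STIP1, the adaptor known as HOP that hands clients from HSP70 to HSP90, was at 12.07 and 12.12 with vehicle and at 11.74 and 11.64 with AICAR. All AICAR values were lower, by 1.33-fold on average (difference -0.41, SE 0.0723, adjusted p = 0.0234), and its other probe set was at -0.48. Both calls were lost without vehicle replicate 1 (adjusted p = 0.192 for FKBP4 and 0.124 for STIP1), vehicle replicate 2 (0.133 for both) and AICAR replicate 2 (0.0841 and 0.0677). FKBP4 also did not pass without the dim filter (0.0677) or after quantile normalization (0.0536).

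CDC37, which brings kinases to HSP90, was at 10.83 and 10.84 with vehicle and at 10.68 and 10.56 with AICAR, and its difference of -0.21 did not pass (SE 0.0736, adjusted p = 0.132). The constitutive HSP90AB1 was at 13.91 and 13.84 with vehicle and 13.70 and 13.68 with AICAR. Its groups did not overlap either, and the difference of -0.19 had an interval of -0.35 to -0.02 (adjusted p = 0.146), with its 3 probe sets between -0.28 and -0.19. The inducible HSP90AA1 was at 14.55 and 14.58 with vehicle and 14.53 and 14.60 with AICAR, so that the groups overlapped and the interval of the difference ran from -0.17 to 0.17, with a sign that turned after median centring (-0.01). Such high values are near the top of the scale, where the highest value of any probe set was 15.34, and whether the array could register a rise there was not tested. FKBP5, a steroid-induced relative of FKBP4, was dim, at 5.92 and 5.89 with vehicle and 5.91 and 6.13 with AICAR. With a trend and robust variances in limma, CDC37 (adjusted p = 0.0319) and HSP90AB1 (0.0039) passed as well.

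**Figure D3:**
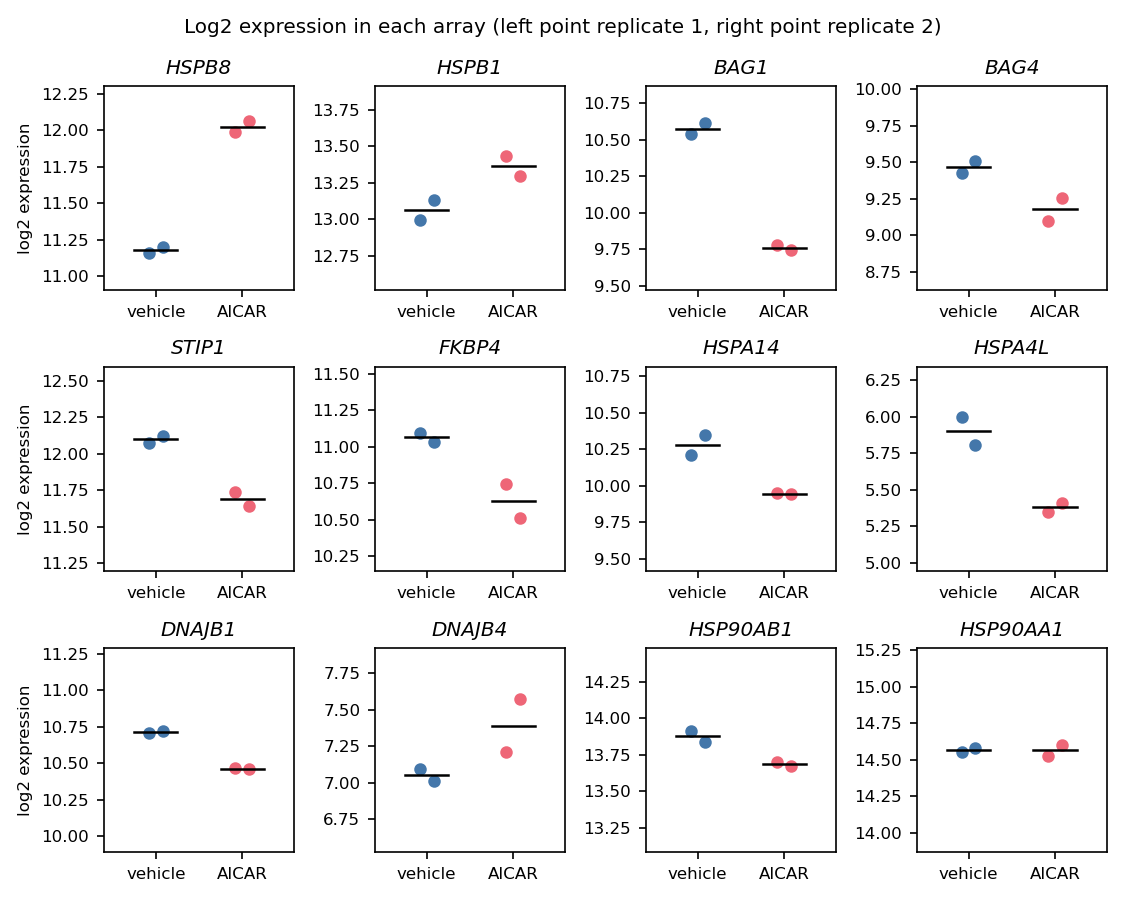
Log2 expression of 12 chaperone genes in each of the 4 arrays, with vehicle in blue, AICAR in red and the group mean as a bar; the y axes span equal ranges. HSPB8 and BAG1 show the widest gaps between groups, HSP90AA1 shows none, and the AICAR arrays of DNAJB4 lie apart, at 7.21 and 7.57.

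Small heat shock proteins hold unfolding proteins without using ATP. Both tested genes had positive differences, of which 1 passed. Over all genes 47.6% had a negative difference and 4.63% were called higher. HSPB8, which works with BAG3 to send misfolded proteins to autophagy, was at 11.16 and 11.20 (log2) with vehicle and at 11.99 and 12.06 with AICAR. The gap between the groups was far wider than the spread within them, a 1.80-fold rise (difference 0.85, SE 0.0692, adjusted p = 0.0056). It ranked 72 of 13842 genes by the size of its difference. The other HSPB8 probe set, at a mean of 7.58, was higher in both AICAR arrays but differed by only 0.26, and when it replaced the first the rise did not pass (adjusted p = 0.107). HSPB1, which encodes HSP27, was at 12.99 and 13.14 with vehicle and at 13.43 and 13.29 with AICAR. Both AICAR values were higher, by 0.30 (SE 0.0856, 95% confidence interval 0.09 to 0.50), and the difference passed only under some settings (adjusted p = 0.0821, but 0.0040 with a trend and robust variances and 0.0461 when only the brighter 50% of genes were tested).

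Of the 11 J-domain genes 0 rose and 0 fell, with a median of -0.11 (log2), or -0.068 without AICAR replicate 1. By an unadjusted limma p under 0.05, 1 was higher and 2 lower, against 12.8% and 13.3% of all genes. DNAJB1, the main J partner of HSP70 under heat stress, was at 10.71 and 10.72 with vehicle and at 10.46 in both AICAR arrays. The arrays of each group were nearly identical, and the difference of -0.25 did not pass (SE 0.0657, adjusted p = 0.0632). When its 2 probe sets were averaged it passed at -0.28 (adjusted p = 0.0357), and it also passed with a trend and robust variances (0.0092) and among the brighter 50% of genes (0.0300). DNAJA1, a heat-inducible J protein, was at 12.50 and 12.53 with vehicle and at 12.31 and 12.30 with AICAR, a difference of -0.21 (adjusted p = 0.104; 0.0058 with a trend and robust variances).

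DNAJB4 had a positive difference, at 7.09 and 7.01 with vehicle and 7.21 and 7.57 with AICAR. Its difference of 0.34 did not pass (SE 0.123, adjusted p = 0.145), and the AICAR arrays lay further apart than their lower value lay from the vehicle arrays. Its second probe set was at 0.33. Without AICAR replicate 1, where the vehicle arrays alone gave the spread, the difference was 0.52 (adjusted p = 0.0307). DNAJB5 had the widest interval of the group, with AICAR arrays at 6.95 and 6.42 on either side of vehicle values of 6.86 and 6.83. Its difference was -0.42 without AICAR replicate 1 (adjusted p = 0.0396, with the spread from the vehicle arrays alone), 0.11 without AICAR replicate 2 and -0.16 with all arrays.

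The remaining J-domain genes stayed between -0.16 and 0.06. DNAJA2 was at -0.16, the endoplasmic reticulum membrane proteins DNAJB12 and DNAJB14 at -0.14 and -0.11, mitochondrial DNAJA3 at -0.07, DNAJB6, a suppressor of aggregation, at -0.05, DNAJA4 at 0.0073 and the neuron-enriched DNAJB2 at 0.06. Probe sets of 1 gene could differ. The second probe set of DNAJA2 differed by 0.38, opposite to the first, and the 4 probe sets of DNAJA4 ran from -0.45 to 0.0073.

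Of the BAG genes, whose products release nucleotide from HSP70 and tie it to other pathways, 0 of 4 tested rose and 1 fell. By an unadjusted limma p under 0.05, 0 were higher and 2 lower. Over all genes the shares were 4.63% called higher and 5.19% lower, and 12.8% and 13.3% unadjusted. The BAG median was -0.18 (log2), or -0.29 with the dim BAG2 included. BAG1, which links HSP70 to the proteasome and binds BCL2, was at 10.54 and 10.61 with vehicle and at 9.78 and 9.75 with AICAR. The groups were well separated, a 1.76-fold fall (difference -0.81, SE 0.0693, adjusted p = 0.0057) that ranked 84 of 13842 genes by size. Its second probe set agreed in sign and was also called among 38229 probe sets, 3.84% of which were called (difference -0.64, adjusted p = 0.0206), while the third differed by -0.16 and was not (0.320).

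BAG4 was at 9.43 and 9.51 with vehicle and at 9.10 and 9.26 with AICAR, and its difference of -0.29 did not pass (SE 0.0820, adjusted p = 0.0787; 0.0201 with a trend and robust variances). BAG3, the stress-inducible partner of HSPB8, was at 9.18 and 9.17 with vehicle and at 9.08 and 9.15 with AICAR. Its difference of -0.06 had an interval of -0.23 to 0.10. The 2 HSPB8 probe sets were at 0.85 and 0.26, and whether the change in BAG3 differed from that in HSPB8 was not tested. The BAG3 interval reflects array-to-array spread, which may be technical, and BAG3 was read from its only probe set. BAG5 differed by -0.08, and BAG2, an inhibitor of the ubiquitin ligase CHIP, by -0.33 at dim values of 5.82 and 6.14 against 5.53 and 5.76 (adjusted p = 0.238 in the fit of all genes).

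In the chaperonin all 7 tested CCT subunit genes had negative differences, also after quantile normalization or median centring, and 6 had both AICAR arrays below both vehicle arrays (over all genes 47.6% were negative and 28% lay below in this way), but 0 passed, and 1 was lower by an unadjusted limma p under 0.05. Over all genes 5.19% were called lower, and 13.3% were lower by the unadjusted p. The CCT median was -0.09 (log2), the range -0.20 to -0.0039. CCT2 was at 13.57 and 13.54 with vehicle and 13.36 and 13.34 with AICAR, the largest difference of the group at -0.20 (SE 0.0666, adjusted p = 0.118). CCT6A followed at 12.33 and 12.48 against 12.17 and 12.27, a difference of -0.18 (SE 0.0834, adjusted p = 0.228). The gap between its groups was smaller than the distance between its vehicle arrays.

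CCT5 differed by -0.16, CCT3 by -0.09, CCT4 by -0.08, CCT7 by -0.06 and CCT8 by -0.0039. Within CCT8 the groups overlapped, and its sign turned without vehicle replicate 2 (0.03) or AICAR replicate 1 (0.04). With a trend and robust variances CCT2 (adjusted p = 0.0026), CCT5 (0.0150) and CCT6A (0.0483) passed. The second probe sets of CCT2, CCT5 and CCT6A, at -0.30, -0.38 and -0.32, were further from 0 than the chosen ones.

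The choice of probe set mattered for many of these genes. The 41 genes had 93 single-symbol probe sets, of which 72 differed below and 21 above 0, while 49.0% of all 38229 probe sets tested were negative. Of the 33 genes with more than 1 probe set, 19 had only negative and 4 only positive differences, and 10 had both. Of the 87 member probe sets above the filter, 1 was called higher and 4 lower, against 3.84% of all probe sets called in either direction: 1 of HSPB8, 2 of BAG1, 1 of STIP1 and 1 of HSPA4L.

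**Figure D4:**
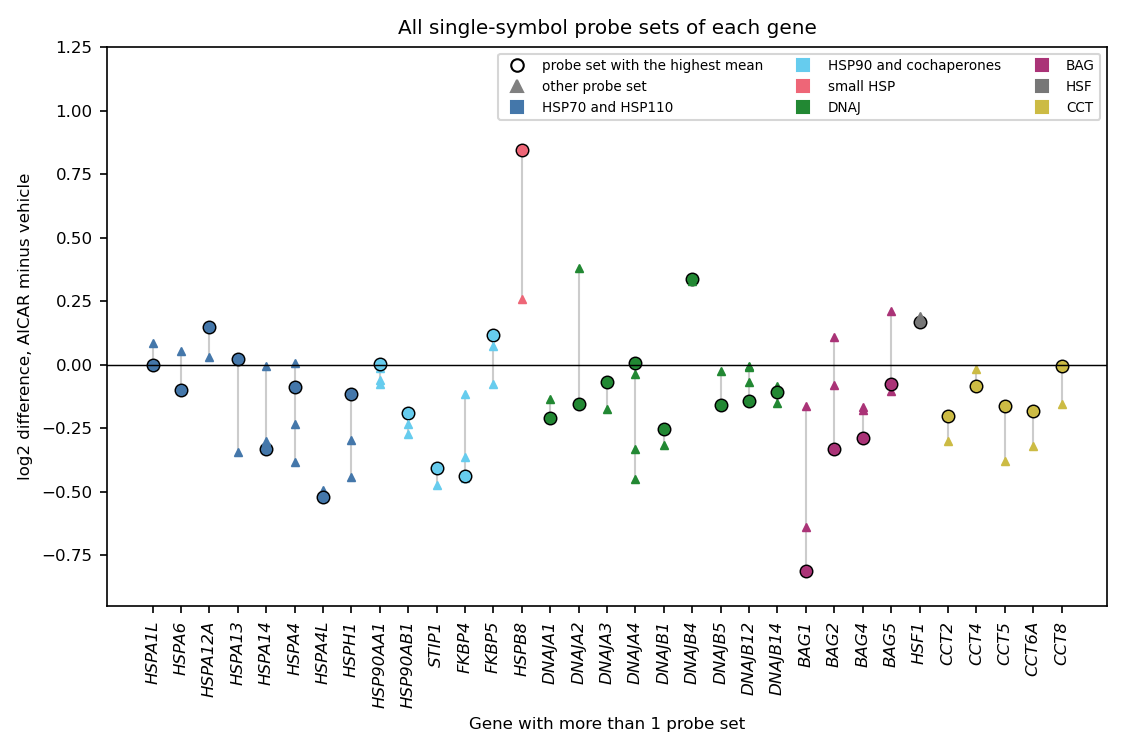
Log2 difference between AICAR and vehicle (y axis) of every single-symbol probe set of the 33 genes with more than 1 (x axis). Outlined circles are the probe sets of highest mean, which represent the genes in the text, and triangles are the others; DNAJA2 has probe sets on both sides of 0, at -0.16 and 0.38, and HSPB8 has 0.85 and 0.26.

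Beyond the 45 genes, related lists gave few calls. Over all genes 4.63% were called higher and 5.19% lower, and 47.6% had a negative difference. By an unadjusted limma p under 0.05 the shares over all genes were 12.8% higher and 13.3% lower. Of 18 tested other cochaperones of HSP70 and HSP90, 0 rose and 0 fell (1 higher, 1 lower by an unadjusted limma p under 0.05), with a median of -0.09 (log2). Of 8 mitochondrial chaperones 0 passed and 4 were lower by the unadjusted limma p, with 7 of 8 negative and a median of -0.17. Of 11 prefoldin subunits and CCT cofactors 0 passed (1 higher and 3 lower unadjusted; median -0.07), and of 3 other heat shock factor regulators 0 passed, also unadjusted. Of 25 DNAJC genes 1 rose, the mitochondrial import J protein DNAJC15 (0.32, adjusted p = 0.0447), and 1 fell, DNAJC17 (-0.50, adjusted p = 0.0179), with a median of -0.06 (1 higher and 2 lower unadjusted). Of 12 tested stress-inducible HSF1 targets, most of them members described above, 0 rose and the 2 that fell were FKBP4 and STIP1, with a median of -0.08. Unadjusted, 1 of these targets was higher and 4 were lower. HSPA4L, also on this list, lay below the dim bound and is not among the 12.

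Clients were compared in the same fit. The values are levels of client mRNA, and the arrays do not measure the amount, folding or stability of the client proteins. Of 19 HSP90 clients 0 rose and 1 fell, the estrogen receptor ESR1 (-0.31, limma adjusted p = 0.0411), with a median of -0.02. ERBB2 differed by 0.05 (95% confidence interval -0.11 to 0.21). Of 18 chaperonin substrates 3 rose, the tubulins TUBA1A (1.01, adjusted p = 0.0078), TUBB2A (0.60, 0.0137) and TUBB6 (0.42, 0.0249), and 1 fell, the anaphase activator CDC20 (-0.86, 0.0081), with a median of -0.08. Of 14 measured genes that respond to steroid receptors as FKBP5 does, 5 lay below the dim bound. Among the 9 tested, PIP (1.40, adjusted p = 0.0028) and DUSP1 (0.74, 0.0116) rose and SGK1 (-0.49, 0.0254) fell, with a median of 0.16. For each of these lists, the shares over all genes were 4.63% called higher and 5.19% lower.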

How the data were processed

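The series' processed table was used: the deposited log2 expression values of 54675 probe sets on 4 arrays, normalized by the authors with Affymetrix Expression Console, per the submitters' processing notes; how it summarized probes and treated background is not given here, which may shrink differences of dim probe sets. Single-symbol probe sets (41097) came from the platform annotation, with symbols updated through Entrez IDs (RefSeq, GRCh38.p14). Genes with a mean under the 30th percentile were left out. Differences were fitted with limma 3.58.1 in R 4.3.3, two-sided, with Benjamini-Hochberg adjustment over all genes tested, and the fit was tested on simulated data. An exact permutation test of 2 against 2 arrays reaches 0.333 at best and was not run. The 45 genes, the lists and the tests were chosen with earlier results of these data known; lists were described by counts and medians. Values in full were given for called genes and for the 2 largest differences per group; of other lists, up to 3 called genes were named. Other genes given in full, and ERBB2, were chosen after their values were seen. Promoters came from RefSeq windows. Alternatives covered the filter, normalization, variances, probe sets, threshold, replicate block and each array left out.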

Additional observations from a re-analysis of the deposited data

How the results depend on the processing

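The main counts were 641 genes higher and 718 lower, and 1 and 4 of the chaperone genes. Without the dim filter 368 genes were higher and 355 lower, and the BAG median was -0.29, as it was when each probe set was tested on its own, where 2 chaperone genes were lower. Trend and robust variances gave 1107 and 1359 genes, and 2 and 12 chaperone genes. An adjusted p under 0.1 gave 1093 and 1173 genes, and 2 chaperone genes higher and 6 lower. The 50th percentile filter gave 819 and 990 genes, and also 2 and 6 chaperone genes. A bound of 1.5-fold left 2 genes higher and 0 lower, and 0 and 0 chaperone genes. Quantile normalization left 2 chaperone genes lower, with medians of -0.065 over all members, -0.064 for DNAJ and -0.073 for CCT, and turned HSPA1L to 0.0081. Median centring gave -0.10 for CCT and turned HSP90AA1 (-0.010) and DNAJA4 (-0.0046). The mean of all probe sets left 1 chaperone gene higher and 6 lower. It gave medians of -0.10 over all members and -0.17 for HSP70 and HSP110. It turned HSPA1L (0.041), HSPA13 (-0.16), HSP90AA1 (-0.037), DNAJA2 (0.11), DNAJA4 (-0.20) and BAG5 (0.011). Passing over _s_at and _x_at probe sets left 0 chaperone genes higher, gave -0.17 for HSP70 and HSP110 and -0.13 for CCT, and put HSP90AA1 at -0.061.

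Leaving out each array in turn, with the spread from the intact group alone, gave 69 to 553 genes higher and 30 to 432 lower, and 1 to 2 chaperone genes higher and 1 to 4 lower. The medians ranged from -0.11 to -0.091 over all members, -0.13 to -0.029 for HSP70 and HSP110, -0.24 to -0.13 for BAG, -0.27 to -0.18 for HSP90 and cochaperones, -0.12 to -0.068 for DNAJ and -0.11 to -0.084 for CCT. The differences whose sign turned ranged from -0.15 to 0.14 for HSPA1L, -0.0068 to 0.30 for HSPA12A, -0.13 to 0.18 for HSPA13, -0.036 to 0.039 for HSP90AA1, -0.055 to 0.070 for DNAJA4, -0.42 to 0.11 for DNAJB5, -0.11 to 0.021 for DNAJB6, -0.25 to 0.032 for DNAJB14 and -0.050 to 0.043 for CCT8. With the replicate number as a block, HSPA14 did not pass (adjusted p = 0.0596), and 1 chaperone gene was higher and 3 lower. Same-numbered arrays did not deviate together (r = -0.07 over 13842 genes), so the numbers were not taken as pairs. Over all alternatives for the 41 measured chaperone genes, 524 differences kept their sign and side of the threshold. Another 21 newly passed, 32 no longer passed and 23 turned sign, and the causes were not tested. Changing the filter, variances, threshold or replicate block, or testing each probe set on its own, left each difference itself unchanged. In those alternatives a sign could not turn.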
